A study of Mus musculus with 6 samples.

Results

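The *Spata* (spermatogenesis-associated) and *Spag* (sperm-associated antigen) genes carry names given for expression or antigenicity in the male germ line, and they do not form 1 family by sequence. Members were all protein-coding genes whose symbol reads Spata or Spag followed by a digit, with *Spata22*, a gene of meiotic recombination, left out. This gave 40 members, 28 *Spata* and 12 *Spag* genes, of 22046 protein-coding genes and 54532 genes in all.

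The study sequenced total RNA of STRA8+ germ cells from mouse testis, with 3 Control libraries and 3 libraries of *Srsf1* conditional knockout (cKO) cells. The genotype of the Control group is given as Cre and that of the cKO group as Srsf1 knockout. The promoter that drives Cre, any floxed allele carried by the Control mice, the age of the mice and the sort or gate for STRA8 are not given in the sources used here. Nothing in the labels says that the replicates are separate animals, so the p-values measure the spread between these libraries, which may be technical. All 6 libraries are labelled with conditional knockout as treatment.

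SRSF1 is an SR protein that binds exonic RNA and takes part in splice site choice, and STRA8 is induced by retinoic acid and marks differentiating spermatogonia and the spermatocytes that enter meiosis. Many *Spata* and *Spag* genes are transcribed from the pachytene stage or in spermatids, and their products build the flagellum, the acrosome, the mitochondrial sheath and the sperm nuclear envelope. Others of these names encode proteins that are used in most dividing or ciliated cells.

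Levels are in FPKM, the fragments of a gene divided by its length in kilobases and by a library size. In the deposited values that size was 0.971 to 1.05 times the fragments counted on genes, since they already carry a scaling factor for each library. Between 15364511 and 17310353 fragments were counted on genes in the Control libraries and between 14447887 and 15326722 in the cKO libraries. The level of *Srsf1* (chromosome 11, 88047373 to 88053755, plus strand) was 84.7, 45.2 and 51.9 FPKM in Control replicates 1, 2 and 3, and 5.08, 4.94 and 5.17 FPKM in cKO replicates 1, 2 and 3. Each cKO library was below each Control library in this gene (log2 fold change -3.29, SE 0.22, limma adjusted p = 5.65e-05).

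Control replicate 2 stood apart from the other Control libraries. Across the 15451 genes tested, its log2(FPKM + 1) values correlated with those of Control replicates 1 and 3 at r = 0.952 and 0.956, while those of replicates 1 and 3 correlated with each other at 0.976. Markers of spermatids were higher in this library. The 10 genes of that list summed to 2480, 8270 and 2451 FPKM in Control replicates 1, 2 and 3, and to 11.4, 11.2 and 9.15 FPKM in the cKO replicates. Other lists stood apart in Control replicate 2 as well. The median ratio to the mean of Control replicates 1 and 3 was 2.74 for spermatid markers. It was 5.06, 2.85 and 2.01 for Leydig, macrophage and blood, and peritubular markers (2, 3 and 2 genes). For early meiotic and Sertoli markers it was 0.791 and 0.735. The counts called and the medians of the marker and partner lists are therefore also given without Control replicate 2, as are some fold changes, while group means include it. Mitochondrial genes took 2.22%, 2.25% and 2.27% of the fragments in the Control replicates and 2.72%, 3.31% and 2.72% in the cKO replicates, and the part of this in the results was not tested.

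The labelled cell type was checked against *Stra8*, *Ddx4*, *Dazl*, *Tex14* and *Mael*, which summed to 1182, 1086 and 1132 FPKM in the Control replicates and 1133, 1315 and 1166 FPKM in the cKO replicates. None of the 5 was at 0. Only *Stra8* stands for the STRA8+ label, and the others stand for germ cells in general. Spermatid markers summed to 2480, 8270 and 2451 FPKM in the same Control replicates, so the check does not show that the cells were STRA8+ alone. *Stra8* itself was at 262, 222 and 250 FPKM in Control and 242, 313 and 262 FPKM in cKO cells, and it was not called (log2 fold change 0.15, SE 0.12, limma adjusted p = 0.359). *Dazl*, the most abundant, was called higher in cKO cells (group means 392 and 529 FPKM), *Mael* (285 and 211 FPKM) and *Ddx4* (159.5 and 135 FPKM) were called lower, and *Tex14* was not called. The median log2 fold change of the 5 was 0.15. Without Control replicate 2, 1 of the 5 was called higher and 1 lower, and the median was 0.082.

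Most members were lower in cKO cells. A gene was tested where its FPKM, averaged over all 6 libraries, reached 1. Of the 38 members tested, 30 were called lower and 2 higher at an adjusted p of at most 0.05 (limma on log2(FPKM + 1)), and 6 were not called. Over all genes tested, 22.2% were called lower and 11.8% higher. *Spag11a* and *Spag11b*, the remaining members, were listed at 0 in every library. In these bulk samples, fewer cells of a type and less RNA per cell cannot be told apart.

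The filter bears on this count. Of the 38 members, 24 reached a mean of 1 FPKM in the Control group alone, so they could enter only by being higher there. Of all genes tested that entered this way, 83.2% were called lower, and 23 of these 24 members were. Among the 14 members with at least 1 FPKM in both groups, 7 were called lower and 2 higher, where 15.1% of all such genes were called lower and 12.7% higher. Every cKO library was below every Control library for 31 of the 38 members and for 28.6% of all genes tested.

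The median log2 fold change of the 38 members was -2.18, and -2.17 with the 2 members at 0 in all cKO libraries set to a floor of 3 fragments over the group. Over all genes tested it was -0.0082. The filter bears on these medians too. Of the 38 members 24 reached 1 FPKM in the Control group alone, against 1735 of all 15451 genes tested. The members' median is thus partly set by the filter, and its distance from the all-gene median is not a test. Summed over the 40 members, the level was 812, 1227 and 737 FPKM in the Control replicates and 285, 307 and 268 FPKM in the cKO replicates. *Spata5* alone supplied 47.7%, 53.4% and 51.0% of the sum in the cKO replicates. Fold changes are on the log2(FPKM + 1) scale, which understates the change of genes with low values. With a pseudocount of 0.1 the members' median was -3.91, and with limma-voom on the fragments it was -4.46. For 1 gene in 3 libraries against 3, the smallest p of an exact two-sided permutation test is 0.1.

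**Figure D1:**
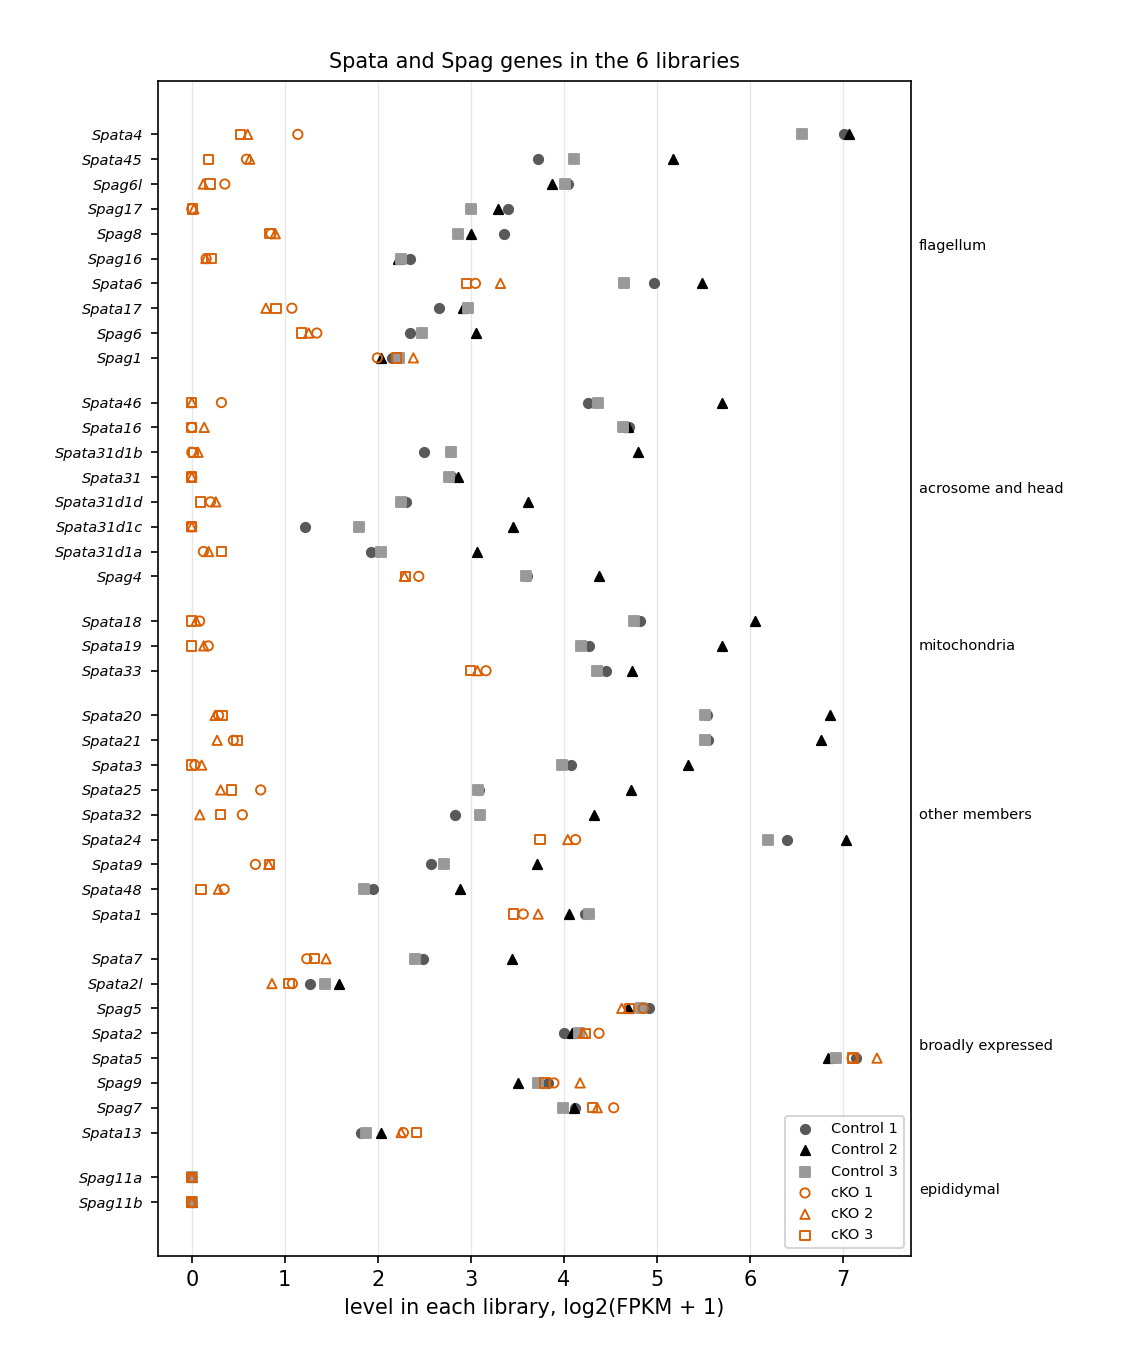
Level of each of the 40 members on the log2(FPKM + 1) scale, with 1 point per library (filled for Control, open for cKO, shape for replicate) and members grouped by role. Points of the cKO libraries lie to the left of all Control points in the flagellar, head, mitochondrial and other groups, except for *Spag1*, while in 6 of the 8 broadly expressed members they overlap with the Control points or lie to their right, and the epididymal genes lie at 0.

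Members of the flagellum, its axoneme and the assembly of its dynein arms were lower in cKO cells in 9 of 10 cases, with *Spag1* as the exception. Of the 10, 7 reached 1 FPKM in the Control group alone, where 83.2% of all such genes were called lower, and 2 of the 3 others were called lower. *Spata4*, a testis protein with a calponin homology domain (ENSMUSG00000031518, chromosome 8, 54600781 to 54610098, plus strand), was at 128, 133 and 93.5 FPKM in the Control replicates and 1.20, 0.517 and 0.436 FPKM in the cKO replicates. All Control libraries were high, and the lowest of them was 77.6 times the highest cKO library. On the log2(FPKM + 1) scale it had the largest fall of the members tested (log2 fold change -6.12, SE 0.20, limma adjusted p = 3.54e-06), from 118 ± 21.5 to 0.719 ± 0.422 FPKM (SD, n = 3). With a pseudocount of 0.1 or limma-voom other members had larger falls, *Spata18* the largest in both (-8.13 and -9.79, against -7.27 and -7.36 for *Spata4*).

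*Spag6l* encodes an armadillo repeat protein of the central apparatus, the pair of singlet microtubules with its projections in the middle of the axoneme (ENSMUSG00000022783, chromosome 16, 16753016 to 16829456, minus strand). Its level was 15.5, 13.7 and 15.2 FPKM in the Control replicates and 0.279, 0.0899 and 0.144 FPKM in the cKO replicates. The Control libraries were close to each other and far above the cKO libraries (log2 fold change -3.75, SE 0.12, limma adjusted p = 2.77e-06). Its paralog *Spag6* on chromosome 2 fell less, from 5.32 ± 1.76 to 1.40 ± 0.139 FPKM (log2 fold change -1.37), and none of the 100-base windows in the annotated transcripts of *Spag6l* occurs in *Spag6* or any other gene.

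The other central apparatus members, *Spag16* with its WD repeats and *Spag17* of the C1a projection, fell as well. *Spag16* went from 3.83 ± 0.238 to 0.127 ± 0.0252 FPKM (log2 fold change -2.10). *Spag17* was at 9.57, 8.78 and 6.98 FPKM in the Control replicates and at 0, 0.0161 and 0.00775 FPKM in the cKO replicates, which is 3506 fragments against 3. Relative to library size the Control group was 1084 times higher, with an exact 95% interval from 371 to 5261 that covers counting error only.

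*Spata45*, a small protein of the sperm axoneme (ENSMUSG00000057072, chromosome 1, 191036639 to 191042942, plus strand), was at 12.2, 34.9 and 16.2 FPKM in the Control replicates and 0.503, 0.540 and 0.130 FPKM in the cKO replicates. Control replicate 2 was the highest of the 6 libraries, and the groups did not overlap (log2 fold change -3.87, SE 0.36, limma adjusted p = 0.000251). *Spag8*, a microtubule-associated sperm protein, was at 7.48 and 0.8196 FPKM in the group means (log2 fold change -2.21), and *Spata17*, with its calmodulin-binding IQ motifs, at 6.23 and 0.906 FPKM (-1.92). *Spata6*, which is needed for the connecting piece between head and tail, retained 23.5% of its Control mean, at 32.7 and 7.67 FPKM (log2 fold change -1.92).

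*Spag1*, a cytoplasmic factor that preassembles dynein arms in ciliated cells, was at 3.46, 3.11 and 3.70 FPKM in the Control replicates and 2.99, 4.21 and 3.61 FPKM in the cKO replicates. The groups overlapped, and no call was made (log2 fold change 0.052, SE 0.13, limma adjusted p = 0.795). Its sign turned without Control replicate 2 and without cKO replicate 2.

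All 8 members of the acrosome, sperm head and nuclear envelope were called lower, and 7 of them reached 1 FPKM in the Control group alone, where 83.2% of all such genes were called lower. *Spata16*, an acrosomal protein whose loss gives round-headed sperm (ENSMUSG00000039335, chromosome 3, 26637620 to 26983212, plus strand), was at 24.9, 24.7 and 23.8 FPKM in the Control replicates and at 0, 0.0970 and 0 FPKM in the cKO replicates. The Control libraries were almost level and the cKO libraries held 3 fragments in all, in replicate 2, against 2538 in Control (log2 fold change -4.63, SE 0.097, limma adjusted p = 9.15e-07). The Control rate was 785 times the cKO rate, with an exact 95% interval from 268 to 3809.

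*Spata46*, a nuclear envelope protein of the shaping sperm head (ENSMUSG00000042800, chromosome 1, 170308803 to 170312125, plus strand), was at 18.1, 50.9 and 19.6 FPKM in the Control replicates and at 0.248, 0 and 0 FPKM in the cKO replicates. Here Control replicate 2 was high, and the 3 cKO fragments were in replicate 1, against 1094 fragments in Control. Relative to library size the ratio was 338, with an exact 95% interval from 115 to 1643, and 221 (75.3 to 1076) without Control replicate 2 (log2 fold change -4.67, SE 0.37, limma adjusted p = 0.000135). *Spag4*, a SUN-domain protein of the spermatid nuclear envelope, kept 29.0% of its Control mean, at 14.0 ± 5.03 and 4.07 ± 0.310 FPKM (log2 fold change -1.52).

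The *Spata31* genes, a family that has expanded by duplication and is needed for sperm formation, lie in 2 groups on chromosome 13. *Spata31d1a*, *Spata31d1b* and *Spata31d1d* are neighbours between 59699806 and 59731752, with gaps of 1.95 and 6.63 kb, and *Spata31* and *Spata31d1c* lie between 64917406 and 65038004. *Spata31* was at 5.97, 6.26 and 5.80 FPKM in the Control replicates and at 0 in the 3 cKO replicates, which makes it at least 294-fold lower against a floor of 3 fragments over the cKO group. *Spata31d1c* was at 1.33, 9.91 and 2.47 FPKM in the Control replicates and likewise at 0 in the cKO replicates, at least 227-fold lower. Of its 734 Control fragments 515 were in replicate 2, and without that library the bound was 98.5-fold (289-fold for *Spata31*).

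The call for *Spata31d1c* was the least secure of the falls. The gene fell below the filter without Control replicate 2, and without cKO replicate 1, 2 or 3 its limma adjusted p was 0.0572, 0.0545 and 0.0591, over a range from 0.00185 to 0.0591 in its alternatives. *Spata31d1b* went from 12.4 to 0.0210 FPKM, *Spata31d1d* from 6.31 to 0.138 and *Spata31d1a* from 4.42 to 0.157 (log2 fold changes -3.33, -2.53 and -2.14). Without Control replicate 2 their Control means were 5.26, 3.83 and 2.95 FPKM. Of the 100-base windows of *Spata31d1a* and *Spata31d1b*, 14.0% and 18.8% also occur in the other gene, so their fragments cannot be fully separated. With limma-voom *Spata31d1b* had a log2 fold change of -8.66 and was not called (adjusted p = 0.0581, in a range from 6.46e-05 to 0.0581 over its alternatives).

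The 3 members of sperm mitochondria and the midpiece were all lower, and 2 of them reached 1 FPKM in the Control group alone, with the same share of 83.2% over all such genes. *Spata18*, also known as Mieap, a protein that acts on damaged mitochondria (ENSMUSG00000029155, chromosome 5, 73651379 to 73679512, plus strand), was at 27.3, 65.6 and 26.0 FPKM in the Control replicates and at 0.0604, 0.0324 and 0 FPKM in the cKO replicates. Control replicate 2 was highest and the groups were far apart (log2 fold change -5.17, SE 0.33, limma adjusted p = 5.27e-05). The cKO libraries held 3 fragments against 4014 in Control, a ratio of 1241 relative to library size, with an exact 95% interval from 424 to 6022, and of 852 (291 to 4133) without Control replicate 2.

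*Spata19*, a mitochondrial protein of the midpiece (ENSMUSG00000031991, chromosome 9, 27396800 to 27401785, plus strand), was at 18.2, 51.1 and 17.2 FPKM in the Control replicates and at 0.131, 0.0937 and 0 FPKM in the cKO replicates. Control replicate 2 was again the highest, the cKO libraries held 5 fragments against 2012, and the groups did not overlap (log2 fold change -4.61, SE 0.39, limma adjusted p = 0.000167). *Spata33*, which ties calcineurin to the mitochondria of the sperm tail, fell to 33.8% of its Control mean, from 22.0 ± 3.22 to 7.45 ± 0.487 FPKM (log2 fold change -1.44).

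The 9 members assigned to no role were all called lower, and 7 of them reached 1 FPKM in the Control group alone, beside 83.2% called lower over all such genes. *Spata20*, which has a thioredoxin-like domain (ENSMUSG00000020867, chromosome 11, 94478904 to 94486179, minus strand), was at 45.4, 116 and 44.7 FPKM in the Control replicates and 0.221, 0.190 and 0.252 FPKM in the cKO replicates. *Spata21*, an EF-hand protein (ENSMUSG00000045004, chromosome 4, 141088333 to 141112760, plus strand), was at 45.9, 107 and 44.9 FPKM in the Control replicates and 0.363, 0.208 and 0.400 FPKM in the cKO replicates. In both genes Control replicate 2 was the highest library, and the lowest Control library was 178 times the highest cKO library for *Spata20* and 112 times for *Spata21*. The log2 fold changes were -5.68 (SE 0.35, limma adjusted p = 4.10e-05) and -5.54 (SE 0.32, limma adjusted p = 3.27e-05).

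*Spata3* (ENSMUSG00000026226, chromosome 1, 86016816 to 86029958, plus strand) was at 15.8, 39.2 and 14.8 FPKM in the Control replicates and at 0.0239, 0.0768 and 0 FPKM in the cKO replicates. Control replicate 2 was highest, and the 4 cKO fragments stood against 2978 in Control (log2 fold change -4.41, SE 0.35, limma adjusted p = 0.000122). Among the rest, *Spata25* went from 13.4 to 0.419 FPKM, *Spata32* from 10.9 to 0.252, *Spata9* from 7.54 to 0.722 and *Spata48* from 3.95 to 0.188 in the group means. Without Control replicate 2 their Control means were 7.47, 6.83, 5.25 and 2.73 FPKM, in the same order. *Spata24* was abundant in both groups and kept 15.6% of its Control mean, at 94.96 ± 30.4 and 14.8 ± 2.12 FPKM (log2 fold change -2.57). *Spata1* had the smallest fall that was called, from 17.2 ± 1.40 to 11.01 ± 1.11 FPKM (log2 fold change -0.60).

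Of the 8 broadly expressed members, 1 was called lower, 2 were called higher and 5 were not called, with a median log2 fold change of 0.21 (0.17 without Control replicate 2, with the same counts). Of these 8, 7 had at least 1 FPKM in both groups, where 15.1% of all genes were called lower and 12.7% higher. *Spata7*, a protein of the connecting cilium, was the one called lower, from 6.25 ± 3.13 to 1.53 ± 0.183 FPKM (log2 fold change -1.44). *Spata5*, an AAA ATPase of ribosome maturation and the most abundant member in cKO cells, was at 140.1, 113 and 120.1 FPKM in the Control replicates and 136, 164 and 137 FPKM in the cKO replicates. The groups overlapped (log2 fold change 0.22, SE 0.11, limma adjusted p = 0.167).

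*Spag5*, also known as astrin, a spindle and kinetochore protein, was at 29.3, 24.8 and 27.5 FPKM in the Control replicates and 27.9, 23.6 and 25.0 FPKM in the cKO replicates. These values overlapped (log2 fold change -0.088, SE 0.093, limma adjusted p = 0.498), and the sign turned with quantile normalization, to 0.019. *Spag9*, the JNK scaffold JIP4, was at 13.2, 10.4 and 12.2 FPKM in the Control replicates and 13.8, 17.1 and 12.9 FPKM in the cKO replicates, also with overlap (log2 fold change 0.27, SE 0.13, limma adjusted p = 0.158).

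*Spata2*, the bridge between the deubiquitinase CYLD and the linear ubiquitin ligase, was at 15.1, 16.0 and 16.9 FPKM in the Control replicates and 19.8, 17.5 and 17.8 FPKM in the cKO replicates. All cKO libraries were above all Control libraries, but the test made no call (log2 fold change 0.19, SE 0.082, limma adjusted p = 0.119). Its paralog *Spata2l* was at 1.42, 1.998 and 1.69 FPKM in the Control replicates and 1.12, 0.818 and 1.06 FPKM in the cKO replicates. Here each cKO library was below each Control library, again without a call (log2 fold change -0.43, SE 0.15, limma adjusted p = 0.0644), and eBayes without the trend did call it (adjusted p = 0.0317, over a range from 0.0317 to 0.733 in its alternatives).

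The 2 members called higher were *Spag7*, a protein with an R3H domain, and *Spata13*. *Spag7* was at 16.3, 16.3 and 14.8 FPKM in the Control replicates and 22.2, 19.5 and 18.8 FPKM in the cKO replicates (log2 fold change 0.33, SE 0.088, limma adjusted p = 0.0270). *Spata13* was at 2.54, 3.09 and 2.65 FPKM in the Control replicates and 3.84, 3.76 and 4.33 FPKM in the cKO replicates (log2 fold change 0.40, SE 0.11, limma adjusted p = 0.0330). The groups did not overlap in either gene.

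These 2 calls did not withstand the loss of most libraries. Without Control replicate 1 or 3, or cKO replicate 1 or 2, neither was called, and without cKO replicate 3 only *Spag7* was. Both were called without Control replicate 2. Over their alternatives the limma adjusted p ran from 0.00563 to 0.0929 for *Spag7* and from 0.00242 to 0.122 for *Spata13*. They were also lost with the replicate number as a block, and that of *Spata13* without a filter.

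Other calls appeared under quantile normalization, which raised the all-gene median of the log2 fold changes by 0.22. *Spata2*, *Spata5* and *Spag9* were then called higher, with limma adjusted p-values of 0.0240, 0.0474 and 0.0337. Over their alternatives these ran from 0.0240 to 0.288, from 0.0474 to 0.370 and from 0.0337 to 0.368, and limma-voom also called *Spag9* (adjusted p = 0.0499). Measured from the all-gene median, the fold changes of these 3 genes with quantile normalization were 0.12, 0.088 and 0.23 (log2), below the 0.20, 0.23 and 0.28 of the values as deposited. *Spag7* and *Spata13* lay 0.34 and 0.41 above that median as deposited, and 0.25 and 0.51 with quantile normalization.

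*Spag11a* and *Spag11b*, which encode defensin-like secreted proteins of the epididymis, lie 14.9 kb apart on chromosome 8 and were listed at 0 in the 6 libraries. *Gm45826* covers 42.2% of the exonic bases of *Spag11a* on the same strand and holds 26.1% of its 100-base windows, so fragments of these genes may have gone uncounted. *Gm45826* was itself listed at 0 in every library.

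**Figure D2:**
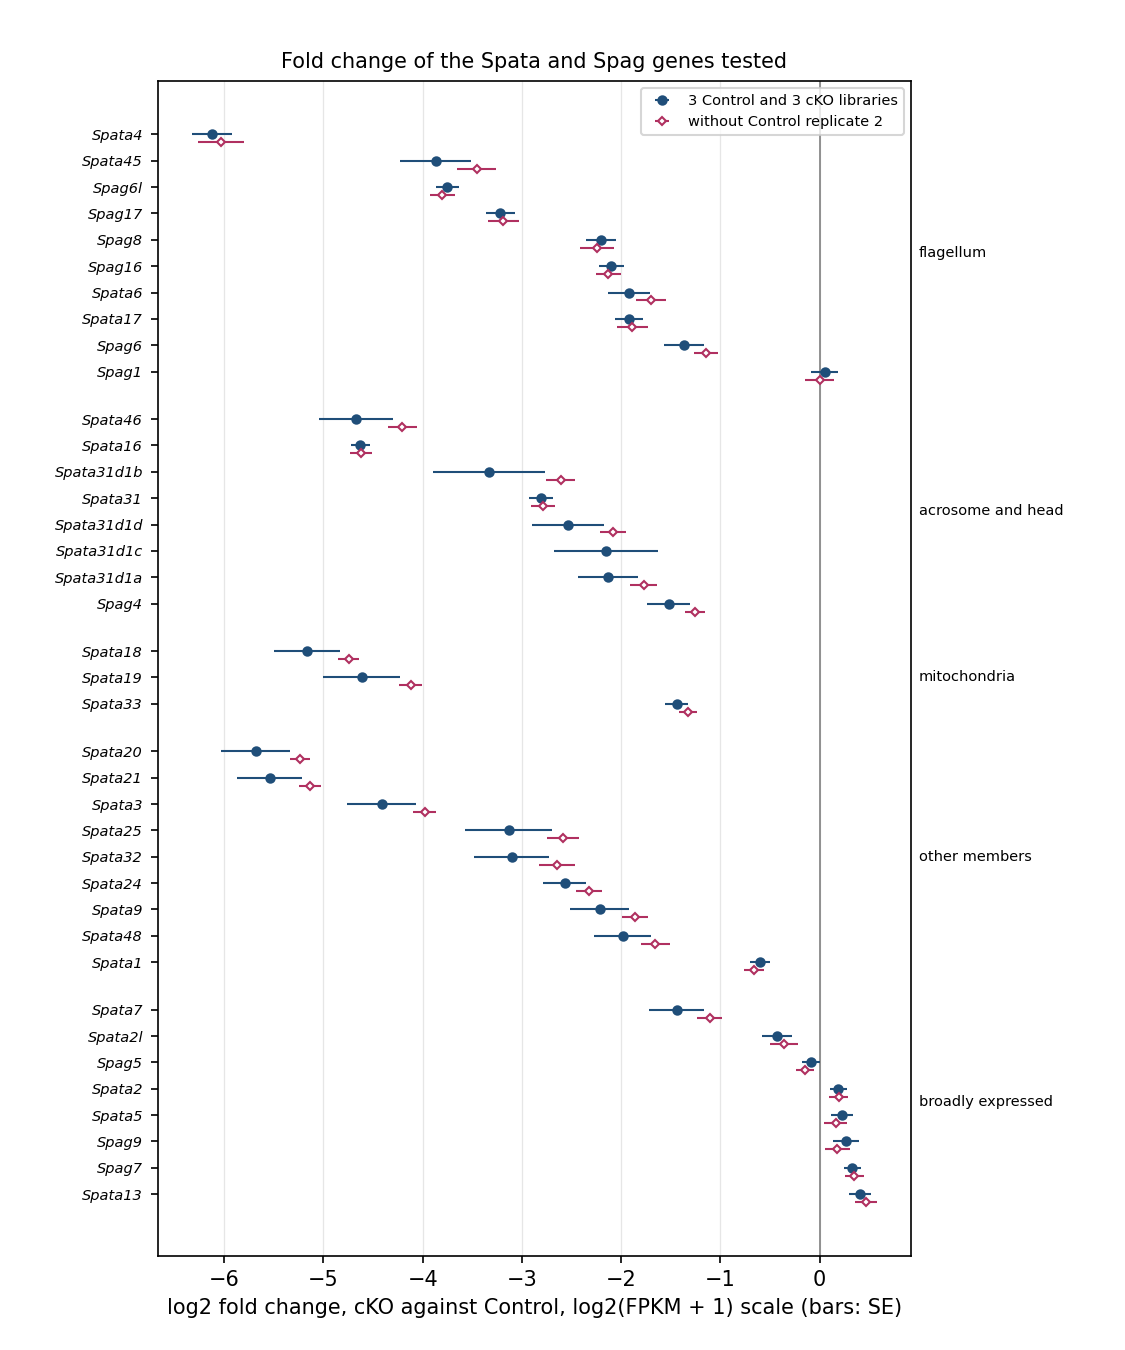
Log2 fold change of cKO against Control for the 38 members tested, on the log2(FPKM + 1) scale, with bars for the SE, for all 6 libraries (circles) and without Control replicate 2 (diamonds). Among the circles, *Spata4* at -6.12 lies farthest to the left and *Spata13* at 0.40 farthest to the right, and *Spata31d1c* has no diamond because it was below the filter without that library.

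Among the 30 members called lower, the Control libraries showed more than 1 pattern. In 20 of them Control replicate 2 was at least 1.5 times the mean of Control replicates 1 and 3, with ratios up to 5.22 for *Spata31d1c*. This was the case for 28.5% of all genes called lower, and for 11.2% of all genes tested with at least 1 FPKM in Control. The 10 others, *Spata1*, *Spag6l*, *Spag8*, *Spag16*, *Spata16*, *Spag17*, *Spata31*, *Spata17*, *Spata4* and *Spata33*, had ratios from 0.867 to 1.27. All 8 members tested that were not called lower had ratios from 0.815 to 1.29.

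The median cKO level was 2.23% of the Control mean in the 10 members and 2.25% in the 20. Against the mean of Control replicates 1 and 3 it was 2.17% and 3.65%. Without Control replicate 2, 29 of the 37 members that then passed the filter were called lower, and the median log2 fold change of those 37 was -2.09. The fold change of *Spata20* was then -5.24 (SE 0.097), that of *Spata46* -4.21 (SE 0.15) and that of *Spata16* -4.62 (SE 0.11), so the falls of these 3 genes were measured without that library too. The fold change moved most for *Spata31d1b*, from -3.33 to -2.61 (SE 0.15), *Spata25*, from -3.13 to -2.59 (SE 0.16), and *Spata19*, from -4.61 to -4.12 (SE 0.12), among the members that passed the filter in both cases.

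**Figure D3:**
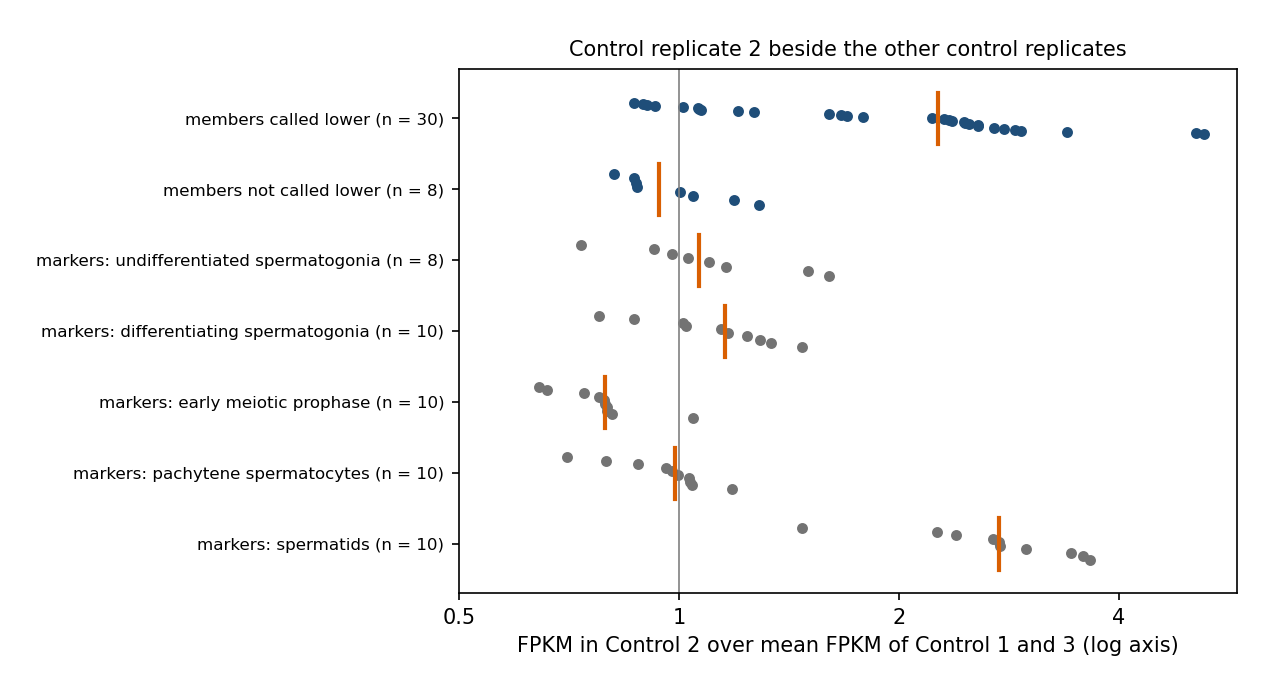
Ratio of the FPKM in Control replicate 2 to the mean FPKM of Control replicates 1 and 3, on a log axis, for members and for stage markers with at least 1 FPKM in the Control group, with 1 point per gene and an orange bar at the median. The median was 2.26 for the 30 members called lower, 0.9398 for the 8 others tested, 0.987 for pachytene markers and 2.74 for spermatid markers.

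Markers of the later germ cell stages fell beside the members. All 10 spermatid markers were called lower (median log2 fold change -4.23), and 6 of them reached 1 FPKM in the Control group alone, where 83.2% of all such genes were called lower. *Tnp2*, the most abundant, was at 708, 2648 and 775 FPKM in the Control replicates and 0.460, 0.863 and 0.356 FPKM in the cKO replicates. Of the 10 pachytene markers, 9 were called lower (median -2.48), 3 of them with 1 FPKM reached in the Control group alone, and the list summed to 1261, 1233 and 1102 FPKM in the Control replicates and 286, 262 and 256 FPKM in the cKO replicates. *Ybx2* was its most abundant gene, with group means of 427 and 135 FPKM, and *Mybl1* was the one not called, at 19.1 and 19.3 FPKM. No marker of either list was at 0 in all libraries. Without Control replicate 2, 10 spermatid and 9 pachytene markers were called lower, with medians of -3.80 and -2.48.

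Of 10 markers of early meiotic prophase, 2 were called lower and none higher (median -0.22), all 10 with at least 1 FPKM in both groups, where 15.1% of all genes were called lower and 12.7% higher. The list had sums of 1274, 933 and 1175 FPKM in the Control replicates and 1008, 1249 and 943 FPKM in the cKO replicates. *Sycp3* was the most abundant and was not called (group means 222 and 218 FPKM), while *Rec8* (20.7 and 13.7 FPKM) and *Spo11* (18.7 and 8.85 FPKM) were called lower. Markers of differentiating spermatogonia had 1 of 10 called lower and 1 higher (median 0.26), again with at least 1 FPKM in both groups for all 10, and sums of 1031, 1165 and 1008 FPKM in the Control replicates and 1272, 1139.5 and 1294 FPKM in the cKO replicates. *Uchl1* was the most abundant there and was not called (268 and 331 FPKM), *Dmrtb1* was called lower (76.3 and 29.5 FPKM) and *Crabp1* higher (119 and 169 FPKM).

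Markers of undifferentiated spermatogonia summed to 63.4, 78.1 and 74.6 FPKM in the Control replicates and 73.8, 68.5 and 79.0 FPKM in the cKO replicates. Of 9 tested out of 10, 8 of them with at least 1 FPKM in both groups, *Id4* was called lower (5.24 and 1.55 FPKM) and *Ret* higher (1.19 and 2.26 FPKM), with a median of 0.11. *Lin28a* was the most abundant and was not called (24.1 and 22.0 FPKM). Without Control replicate 2, 3 early meiotic markers were called lower, 3 differentiating markers higher and 1 lower, and 2 undifferentiated markers higher and 1 lower. The medians were then -0.33, 0.27 and 0.20. No marker of these 3 lists was at 0 throughout. The part of these stage differences in the levels of the members was not tested.

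Markers of Sertoli cells summed to 87.7, 70.1 and 104.9 FPKM in the Control replicates and 148, 58.1 and 86.0 FPKM in the cKO replicates, with *Clu* the most abundant (52.5 and 52.1 FPKM in the group means), and 1 of 8, *Rhox5*, was called higher (2.09 and 4.11 FPKM, median of the list 0.19). Leydig cell markers summed to 5.45, 14.0 and 2.95 FPKM in the Control replicates and 10.2, 6.34 and 10.7 FPKM in the cKO replicates, with *Insl3* on top. Peritubular markers summed to 3.69, 6.44 and 4.13 FPKM in the Control replicates and 8.16, 7.04 and 7.35 FPKM in the cKO replicates, with *Tagln* on top. Of these 2 lists, 2 of 6 and 2 of 5 genes were tested and none was called, with medians of 0.47 and 0.51 (0.91 and 0.66 without Control replicate 2). Markers of macrophages and blood summed to 14.5, 34.2 and 12.9 FPKM in the Control replicates and 9.85, 19.95 and 13.6 FPKM in the cKO replicates, with *Lyz2* on top, and none of 3 tested out of 7 was called (median -0.12). Without Control replicate 2, no Sertoli marker and 1 peritubular marker were called, the latter higher, and the medians of the Sertoli and the macrophage and blood lists were 0.064 and -0.068. The somatic genes tested all had at least 1 FPKM in both groups, where 15.1% of all genes were called lower and 12.7% higher. No gene of the 4 lists was at 0 in all libraries, and their part in the members' levels was not tested.

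Genes that act with the members were examined in 7 lists. Of 9 genes of the central apparatus, which work with SPAG6, SPAG16 and SPAG17, 7 were tested and all 7 were called lower (median log2 fold change -1.58). Of the 7, *Hydin*, *Cfap221* and *Cfap46* reached 1 FPKM in the Control group alone, where 83.2% of all such genes were called lower. *Meig1*, which binds SPAG16, was the most abundant, at 214, 246 and 159.6 FPKM in the Control replicates and 3.64, 1.98 and 2.75 FPKM in the cKO replicates. Of 11 genes of dynein arm preassembly, the pathway of SPAG1, 9 were tested, 7 were called lower and 1 higher (median -0.68), all 9 with at least 1 FPKM in both groups, where 15.1% of all genes were called lower and 12.7% higher. *Dnaaf1* was the most abundant called lower, from 71.7 to 4.12 FPKM, *Ruvbl1* was called higher, from 45.1 to 54.6 FPKM, and *Dnaaf2* was not called (1.48 and 1.10 FPKM). *Spag1* itself was not called beside them.

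Of 9 genes of round-headed sperm and of the head-tail junction, the setting of SPATA16, SPAG4 and SPATA6, 6 were called lower, 4 of them with 1 FPKM reached in the Control group alone, and 3 were not called (median -2.09). The 5 others of this list had at least 1 FPKM in both groups, and 2 of these were called lower. Of all genes that reached 1 FPKM in the Control group alone 83.2% were called lower, and 15.1% of those that reached it in both. *Odf1*, of the outer dense fibres, went from 148 to 0.159 FPKM, and *Agfg1*, which acts in acrosome formation, was at 19.4 and 18.4 FPKM. Of 3 genes listed as partners of SPATA33, the 2 of sperm calcineurin were called lower (median of the 3 genes -1.24). The catalytic subunit *Ppp3cc* went from 38.7 to 15.8 FPKM. *Ppp3r2* went from 29.6 to 0.276 FPKM, with 1 FPKM reached in the Control group alone. *Vdac3*, which is not a calcineurin gene, was not called (36.9 and 31.8 FPKM).

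Of the 16 partners of the broadly expressed members tested, all with at least 1 FPKM in both groups, 2 were called lower and 1 higher, beside 15.1% and 12.7% of all such genes. Of 5 genes of the linear ubiquitin and CYLD complex that SPATA2 joins, 1 was called lower, *Sharpin* (16.2 and 11.1 FPKM), and 4 were not called (median 0.032). Of 5 genes of the astrin-kinastrin spindle complex of SPAG5, 1 was called lower, *Knstrn* (8.41 and 4.49 FPKM), and 4 were not called (median -0.14). Of 6 genes around the JNK scaffold SPAG9, 1 was called higher, *Kif5b* (18.04 and 24.98 FPKM), and 5 were not called (median 0.13). The most abundant genes not called in these lists were *Otulin* (22.8 and 23.3 FPKM), *Dynll1* (71.6 and 64.7 FPKM) and *Mapk8ip3* (30.0 and 35.7 FPKM). Without Control replicate 2, the number of genes called in these 7 lists was the same but for 6 central apparatus genes, all of the 6 then tested, and 1 gene of the JNK list called lower. The medians were then -1.79 for the central apparatus, -0.69 for dynein arm preassembly, -2.12 for round-headed sperm and the head-tail junction and -1.30 for the SPATA33 partners. Those of the linear ubiquitin, astrin and JNK lists were 0.076, -0.11 and 0.16. No difference between lists was tested.

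Position and sequence set limits for a few members. The members lie on 14 chromosomes, none on X or Y, with 6 each on chromosomes 11 and 13. For 34 of the 40, at least 90% of the 100-base windows of their transcripts in GENCODE M21 occur in no other annotated gene. Exons of *Wdr3* and *Spag17os* on the other strand cover 15.7% of the exonic bases of *Spag17*, and *Wdr3* was at 20.4, 19.0 and 18.5 FPKM in the Control replicates and 27.1, 27.7 and 27.2 FPKM in the cKO replicates. *Zswim1* covers 21.5% of *Spata25* and *Zpbp* 12.0% of *Spata48*, both from the other strand, and *Cdk10* and *4933417D19Rik* cover 12.6% of *Spata2l*. Whether strand was used in counting is not given in the sources used here, so fragments of such pairs may be shared. In GENCODE M21 a second gene, spelled SPATA24, covers 41.9% of the exonic bases of *Spata24* on the same strand. No gene of that spelling was found in the deposited values. The coordinates of 39 of the 40 members are the same in GENCODE M21 as in the deposited values, and *Spata24* is the exception.

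Promoter sequence is shown for *Spata4*, *Spata20* and *Spata21*, whose falls were the largest on the log2(FPKM + 1) scale, though not on other scales. RefSeq promoters (GRCm38.p6) were found for 35 of the 40 members, and the 250 bases before the start were searched on both strands for TGACGTCA, the cAMP response element, GTTGCC, the core of the RFX motif, and AACNGC and AACNGT, the MYB core. On the other strand AACNGC reads GCNGTT, whose last 3 letters can begin a GTTGCC match. Bases that GENCODE M21 annotates as exon were left off the printed runs, and capitals mark the matches.
*Spata4*, chr8:54600531-54600780, plus strand: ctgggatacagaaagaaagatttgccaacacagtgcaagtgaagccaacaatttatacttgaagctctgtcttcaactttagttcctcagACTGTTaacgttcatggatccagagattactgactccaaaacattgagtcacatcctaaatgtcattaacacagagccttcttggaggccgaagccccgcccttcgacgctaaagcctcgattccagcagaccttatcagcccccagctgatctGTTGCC
*Spata20*, chr11:94485349-94485560, minus strand: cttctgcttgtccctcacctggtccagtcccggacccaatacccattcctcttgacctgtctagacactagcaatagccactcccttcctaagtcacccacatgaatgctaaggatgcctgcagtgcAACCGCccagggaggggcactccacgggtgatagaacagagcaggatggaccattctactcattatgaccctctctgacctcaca
*Spata21*, chr4:141088095-141088332, plus strand: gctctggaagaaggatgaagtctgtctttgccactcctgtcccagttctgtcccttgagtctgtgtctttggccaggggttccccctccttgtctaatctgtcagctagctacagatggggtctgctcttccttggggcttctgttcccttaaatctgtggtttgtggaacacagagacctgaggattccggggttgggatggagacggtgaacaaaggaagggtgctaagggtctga

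The *Spata4* window lies in an intron of the antisense gene *5330439A09Rik* and holds a match of AACNGT on the other strand (ACTGTT as printed) that starts 160 bases before the start of the gene and a GTTGCC match directly before it. The *Spata20* window, which lies within longer transcripts of the same gene, holds 1 AACNGC match, and the *Spata21* window holds none of the 4 motifs. Over genes with a promoter, TGACGTCA was found in 2 of 35 members (*Spag4* and *Spag6l*) and 1.77% of all genes, and GTTGCC in 5 members and 11.8%. AACNGC was found in 15 members and 33.1% of all genes, and AACNGT in 12 members and 24.9%. A match describes these letters only.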

How the data were processed

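Total RNA of STRA8+ testis cells was sequenced in 3 Control and 3 cKO libraries, grouped by the titles in the labels. The authors deposited FPKM for each gene and library with the gene length used. The submitters' processing notes name HISAT2 2.0.5 and mm10, and the counting tool is not given in the sources used here. The fragments per gene were recovered as the product of FPKM and gene length over each library's smallest step, and 100% of values above 0 came out whole within 0.05. Scaling by the median of ratios left these values as deposited (the all-gene median moved by -1.5e-09), so they already carry such a factor and this alternative tests nothing further.

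Genes averaging 1 FPKM or more were tested on log2(FPKM + 1) with limma 3.58.1 in R 4.3.3 (lmFit, eBayes with trend), with Benjamini-Hochberg adjustment over all 15451 genes tested and a threshold of 0.05. The test was checked on simulated data. Floors are 3 fragments over a group of 3 libraries, and intervals are exact (Clopper-Pearson) at 95%; both cover counting error only.

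Values in every library are printed for the 10 called members with the largest absolute log2 fold change and groups that do not overlap, for members called higher and for up to 8 members not called. Some further members, with few or no cKO fragments, were given in every library after their values were seen, as were *Spo11* and *Ddx4* by name. Of other lists, the most abundant gene called in each direction and the most abundant not called are named. The gene lists were markers of 5 germ cell stages, 4 somatic cell types and the labelled cell type, and 7 lists of partner genes. Members and lists were chosen with earlier results of these data known. Alternatives were the pseudocount (0.1), the filter (none, or 5 FPKM), the scaling (median of ratios, quantile, sum of fragments), eBayes without the trend, limma-voom on the fragments, a replicate block and leaving out each library. Coordinates are GRCm38, from the deposited table, and promoters are from RefSeq.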

Additional observations from a re-analysis of the deposited data

How the results depend on the processing

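Each of the 30 members called lower stayed lower in every alternative that tested it, and 28 of them stayed called in all. The exceptions were *Spata31d1b* and *Spata31d1c*. The number of members called lower was 30 and ran from 29 to 30 when each library was left out in turn, and it was 18 with a mean of at least 5 FPKM, since 23 members then entered. It was 31 with eBayes without the trend, and 29, with 3 higher, with limma-voom. The number called higher was 2, and 1 without a filter, 1 with a mean of at least 5 FPKM, 5 with quantile normalization, and between 0 and 2 when each library was left out. Over all genes, 3437 were called lower and 1821 higher. With a mean of at least 5 FPKM 1950 were called lower, and with quantile normalization 5164 were called higher, which raised the higher share of calls from 34.6% to 67.1%. Dividing by the sum of fragments gave 3249 lower and 2294 higher. Leaving out each library gave 2763 to 3202 lower and 965 to 1752 higher. The log2 fold change of *Spag5* turned to 0.019 with quantile normalization, and that of *Spag1* to -0.00029 without Control replicate 2 and -0.043 without cKO replicate 2, within a range from -0.043 to 0.15 when each library was left out. None of these was called. Apart from the smaller number of genes tested or libraries used, the cause was not tested.

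Libraries with the same replicate number did not deviate together from their group means (r across genes -0.0014, -0.111 and 0.016). For libraries with different numbers r ran from -0.155 to 0.135. With 3 libraries in a group, these values cannot tell whether the samples were paired. With the replicate number as a block, 30 members were called lower and 0 higher, and over all genes 2870 were called lower and 891 higher. The median log2 fold change of the members was -2.18 under the block.

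Depth limits the members with few cKO fragments. A floor of 3 fragments over the group sets how large a fall can be measured. The small differences of *Spag7* and *Spata13* lay on either side of the threshold across the alternatives, some of which used all 6 libraries. The cause of this was not tested.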

Other observations

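Symbols of the same pattern fell outside the rule by their annotated type. *Spata5l1*, a paralog of *Spata5* that the table lists as a processed transcript (chromosome 2, 122630625 to 122632930, plus strand), was at 6.55, 6.58 and 6.46 FPKM in the Control replicates and 4.90, 3.66 and 4.59 FPKM in the cKO replicates. Each cKO library was below each Control library (log2 fold change -0.49, SE 0.11, limma adjusted p = 0.0162). *Spag17os*, antisense to *Spag17*, was listed at 0 in every library.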
